A study of Mus musculus with 12 samples.

Results

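T-positive cells from T_Y88A mouse embryos were set against T-positive cells from wild-type embryos, library by library and gene by gene. The T_Y88A embryos gave 2 libraries, 1 from Theiler stage TS12 and 1 from TS13, the stages at which the first somites form and the tail end of the embryo extends. The wild-type embryos gave 1 library, labelled TS12/TS13. These are 3 of the 12 samples of the series, and their labels define the groups. All 3 were RNA from cells isolated by flow cytometry on a mixed 129S2/C57Bl6J background. The mutant allele is named for a change at residue 88 of the T protein; the labels give neither the zygosity, nor the sex of the embryos, nor how many were pooled, nor how T was detected in the sort. The series' design text calls its wild type T_het, which leaves unstated which second allele the controls carried. A further 2 libraries, T_Y88A and wild type, came from Day 4 cultures of embryonic stem cells, differentiated with BMP4 and then with WNT3A and FGF8, with the same background and sort; they are used at the end. Values are FPKM (fragments counted per length of gene model and per library size), and differences are T_Y88A minus wild type on the log2(FPKM + 1) scale, which understates the change of low genes.

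T, also called Brachyury, is the founding member of the T-box family of DNA-binding transcription factors. It is switched on in the primitive streak, kept on in the tail bud and notochord, and needed there for posterior mesoderm. Cells that leave the streak become paraxial mesoderm, which segments into somites, or lateral and extraembryonic mesoderm, which gives the first blood and vessels. Mice that lack T form too little posterior mesoderm and no proper notochord.

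The libraries were alike in breadth: 11100 and 11127 symbols reached 1 FPKM in T_Y88A TS12 and TS13, against 11235 in wild type. Steps between the lowest values put the depth of the T_Y88A libraries at 0.754 and 0.971 of the wild-type one, an estimate from 170 and 176 genes of which 16.5% and 22.2% shared the commonest ratio. Across genes, log2 values correlated at 0.986 between T_Y88A TS12 and TS13, and at 0.971 and 0.973 between each of them and wild type. The name of the wild-type column begins like those of the T_Y88A columns, so every direction below rests on the sample label. Nothing states that the T_Y88A libraries came from separate litters, so p-values measure only the spread between these libraries, and stage and library cannot be told apart.

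A minority of genes differed, and decreases outnumbered increases. Of 11145 genes that averaged 1 FPKM or more, limma called 85 higher (0.763%) and 182 lower (1.63%) in T_Y88A, each in the same direction in both libraries at a Benjamini-Hochberg adjusted p under 0.05. "Rose" and "fell" are used below for these calls only. Some genes that fell, such as Tcf15, Shh, Gfi1b, Rhox5 and Peg13, averaged 1 FPKM only through the wild-type library, which fixes the direction of their difference. By size alone, 39 genes (0.35%) stood at least 2-fold higher and 159 (1.43%) at least 2-fold lower in both T_Y88A libraries, with no test. The median difference over all genes was -0.006, with 5657 genes below 0 and 5488 above. Both T_Y88A libraries lay below wild type in 4235 of the 11145 genes and above it in 4120, both being set against the same wild-type library. These shares of all genes are the background to every list count below. Of the called genes, 85 of the decreases and 10 of the increases belonged to the 49 gene lists examined. The test is sensitive to its settings: under quantile normalization 3 genes were called higher and 31 lower, and with no filter on low values 0 and 0 of 17369, with 2249 at an unadjusted p under 0.05. How many alternative settings lost a call is given below for some genes only. The size counts rest on both libraries agreeing: without TS12 they were 117 higher and 240 lower, and without TS13 130 and 262.

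**Figure D1:**
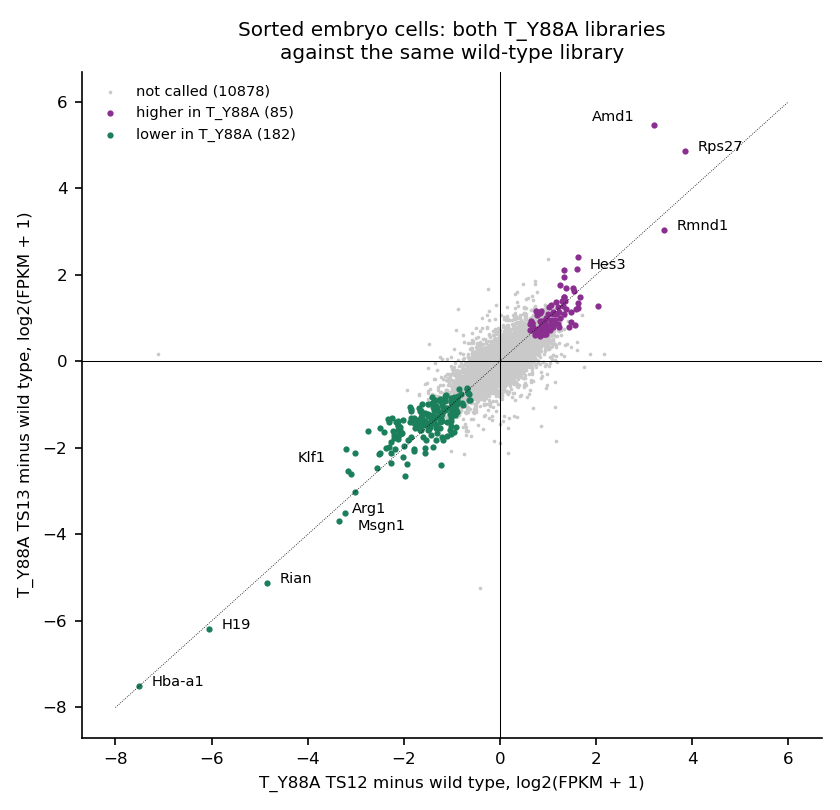
Each point is 1 of 11145 genes; the x axis gives T_Y88A TS12 minus wild type and the y axis T_Y88A TS13 minus wild type, both as log2(FPKM + 1), and the dotted line marks equal differences. The 85 genes called higher and 182 called lower lie where both differences have the same sign, which a call required. Both differences also share the wild-type value. The fit takes its spread from the T_Y88A pair, which favours genes close to the dotted line.

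Most presomitic mesoderm genes fell. Of 16 presomitic and segmentation genes tested, 10 fell (62.5%, against 1.63% of all genes) and 1 rose; the list median was -1.35, made up of -1.28 in TS12 and -1.45 in TS13. Summed over the 22 list genes in the table, the level was 168 and 129 FPKM in T_Y88A TS12 and TS13, against 394 FPKM in wild type. In bulk RNA, fewer presomitic cells and less RNA per cell cannot be told apart, here and for every cell type below.

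Msgn1, a helix-loop-helix regulator that drives streak cells into presomitic mesoderm (chromosome 12, 11208382 to 11208948, mm10), had 3.48 and 2.71 FPKM in T_Y88A TS12 and TS13, against 41.1 FPKM in wild type. Both T_Y88A libraries lay far below wild type, with a log2 difference of -3.37 ± 0.22 (SE; limma, adjusted p = 8.99e-06). Pcdh19, a protocadherin of the segmenting mesoderm, had 1.78 and 1.29 FPKM in T_Y88A and 8.64 FPKM in wild type (log2 difference -1.94 ± 0.26, adjusted p = 0.00241). Tcf15, a helix-loop-helix factor that keeps newly formed somites epithelial, had 0.548 and 0.346 FPKM in T_Y88A and 5.26 FPKM in wild type (log2 difference -2.12 ± 0.29). Nrarp, a feedback inhibitor of NOTCH, had 6.78 and 6.65 FPKM in T_Y88A and 19.4 FPKM in wild type, and Lfng, the glycosyltransferase that modulates NOTCH in the segmentation clock, 3.70 and 3.84 against 10.8 FPKM. In both genes the T_Y88A libraries nearly coincided. Dll1, a NOTCH ligand of the same tissue, had 10.8 and 7.79 FPKM in T_Y88A, against 44.3 FPKM in wild type.

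The other members of the list were mixed, although 15 of the 16 tested had a difference below 0, against 5657 of all 11145 genes. Epha4, an Eph receptor of somite boundaries, had 29.2 and 24.6 FPKM in T_Y88A and 30.2 FPKM in wild type, and Fgf17, a growth factor of the tail bud, 11.9 and 10.1 against 11.5 FPKM. For Fgf17 the log2 difference was -0.06 ± 0.21 (SE). Dll3, an inhibitory NOTCH ligand, had 7.81 and 6.24 FPKM in T_Y88A and 12.5 FPKM in wild type, and Hes7, the oscillating clock repressor, 4.46 and 2.88 against 5.38 FPKM; neither passed (adjusted p = 0.101 and 0.418). Aldh1a2, which makes retinoic acid in somites, split the T_Y88A libraries, at 12.3 FPKM in TS12 and 5.29 FPKM in TS13, against 13 FPKM in wild type. Hes3, a repressor of the same family known from neural progenitors, rose to 6.99 and 10.6 FPKM in T_Y88A, against 1.62 FPKM in wild type.

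Somite genes were few, and their list median was -0.18, made up of -0.52 in TS12 and 0.10 in TS13. Foxc1, a forkhead factor of paraxial mesoderm, had 4.01 and 6.38 FPKM in T_Y88A and 17.2 FPKM in wild type (log2 difference -1.58 ± 0.25, adjusted p = 0.00748). Meox1, a homeobox gene of somites, had 3.06 and 3.34 FPKM in T_Y88A, against 10.6 FPKM in wild type. These were the 2 of 6 tested that fell. Twist1, a mesenchymal helix-loop-helix factor, had 8.05 and 10.4 FPKM in T_Y88A and 10.5 FPKM in wild type. Uncx, which marks the posterior part of each somite, stayed under 0.3 FPKM in all 3 libraries. Under quantile normalization 5 of the 10 presomitic decreases and neither somite decrease were called.

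**Figure D2:**
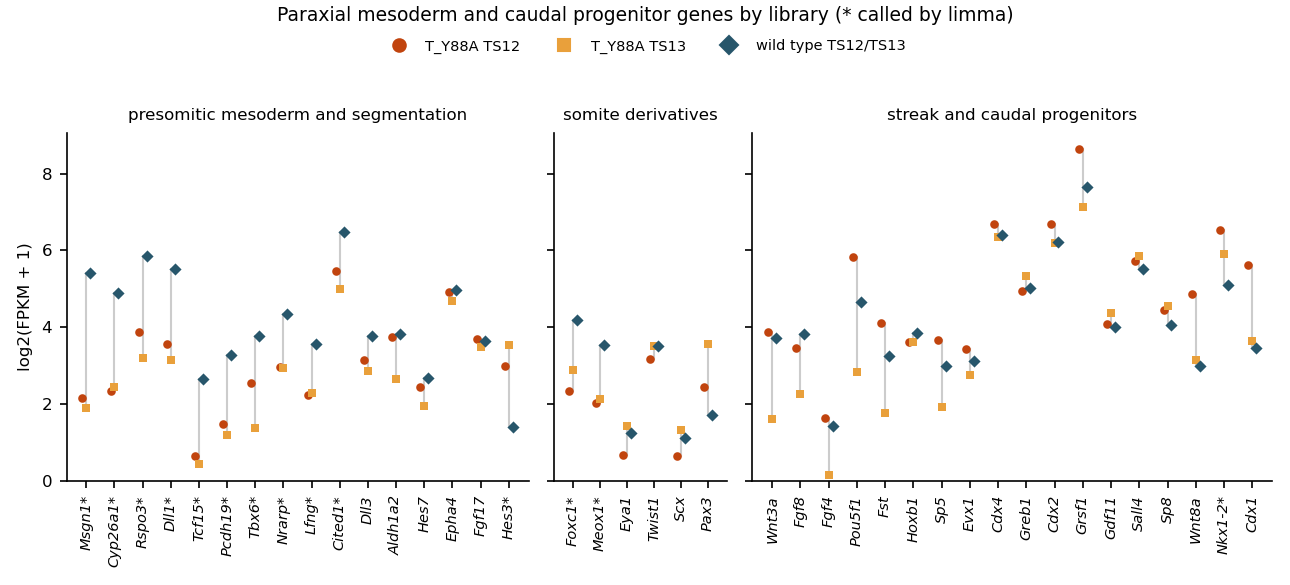
Points give log2(FPKM + 1) of each tested gene in T_Y88A TS12, T_Y88A TS13 and wild type, with a grey line spanning the 3 libraries and an asterisk for genes called by limma. Presomitic genes from Msgn1 to Cited1 sit below wild type in both T_Y88A libraries, while several streak genes, such as Pou5f1 and Wnt3a, differ more between TS12 and TS13 than either does from wild type.

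T binds a short DNA element whose core reads TCACACCT. Promoters (250 bases before to 50 after each gene start, RefSeq, GRCm38.p6) were searched for these 8 letters on both strands. They occurred in 419 of 32851 promoters (1.28%), in 81 of the 8870 tested genes with a promoter in the table (0.913%), in 7 of 130 called lower (5.38%) and in 2 of 68 called higher (2.94%). A gene was counted if any of its promoters held the letters, so gene shares and the share of promoters are unlike measures. The 7 called lower were Atf4, Erg, Hemgn, Hsp90b1, Meg3, Palm3 and Samsn1. None of the 8 presomitic genes called lower with a promoter in the table held the letters, and of 27 blood and endothelial ones Erg alone did (3.7%). Inner letters CACACC, searched after values had been seen and contained in the longer word, are common. They occurred in 6257 of 32851 promoters (19%) and in 1752 of the 8870 tested genes (19.8%). Among genes called lower they occurred in 3 of the 8 presomitic ones (37.5%) and in 7 of the 27 blood and endothelial ones (25.9%). Printed below, 5′ to 3′ along the gene, are a promoter of Erg (chr16:95459299-95459598, minus strand), the 1 match among the blood and endothelial genes called lower, and promoters of Dll1 (chr17:15375774-15376073, minus strand), Klf1 (chr8:84901732-84902031, plus strand) and Msgn1 (chr12:11208899-11209198, minus strand), chosen after their values were seen as strong decreases. Erg has 3 listed promoters, Dll1 2, and Klf1 and Msgn1 1 each. A promoter that held the inner letters was taken first, so the printed matches were picked. Capitals mark TCACACCT in Erg, starting 220 bases before the gene start, GGTGTG (the inner letters on the other strand) in Dll1, starting 50 bases before it, and CACACC at 2 places in Klf1, the first 136 bases before it; the Msgn1 window holds neither word. A match is a description of letters and not a bound site.
Erg: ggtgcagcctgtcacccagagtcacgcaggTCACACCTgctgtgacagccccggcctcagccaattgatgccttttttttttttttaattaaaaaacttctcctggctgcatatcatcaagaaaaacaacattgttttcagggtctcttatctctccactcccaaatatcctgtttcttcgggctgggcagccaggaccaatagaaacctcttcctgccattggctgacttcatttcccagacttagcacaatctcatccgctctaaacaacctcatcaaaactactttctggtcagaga
Dll1: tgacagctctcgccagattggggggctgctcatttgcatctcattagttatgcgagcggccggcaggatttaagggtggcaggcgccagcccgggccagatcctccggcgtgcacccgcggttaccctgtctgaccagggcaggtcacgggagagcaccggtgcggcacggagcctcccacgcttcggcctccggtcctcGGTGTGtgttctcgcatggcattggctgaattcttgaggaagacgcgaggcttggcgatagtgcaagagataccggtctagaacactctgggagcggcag
Klf1: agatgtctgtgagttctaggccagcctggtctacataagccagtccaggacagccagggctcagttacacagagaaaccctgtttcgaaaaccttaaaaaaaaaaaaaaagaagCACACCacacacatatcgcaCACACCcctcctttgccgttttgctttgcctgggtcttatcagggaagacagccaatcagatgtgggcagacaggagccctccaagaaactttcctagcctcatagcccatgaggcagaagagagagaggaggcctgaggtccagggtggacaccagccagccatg
Msgn1: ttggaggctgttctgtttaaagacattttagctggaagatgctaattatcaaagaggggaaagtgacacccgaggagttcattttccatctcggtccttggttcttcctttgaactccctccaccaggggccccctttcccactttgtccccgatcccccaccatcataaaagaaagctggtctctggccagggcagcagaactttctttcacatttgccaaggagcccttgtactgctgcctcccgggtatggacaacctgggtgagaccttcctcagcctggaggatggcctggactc

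The T-box family itself gave 2 decreases among 6 tested genes. T, the mutated gene, had 69.8 FPKM in T_Y88A TS12 and 26.99 FPKM in TS13, against 65.9 FPKM in wild type (adjusted p = 0.484). TS12 matched wild type and TS13 lay below it, so the 2 embryo libraries gave no common shift. At Day 4, with 1 library of each genotype, T had 32.5 FPKM in T_Y88A and 72.9 FPKM in wild type (log2 difference -1.14). A substitution need not change RNA level, and these values do not check the genotype. Tbx6, which commits cells to paraxial mesoderm, had 4.79 and 1.60 FPKM in T_Y88A and 12.6 FPKM in wild type (adjusted p = 0.0238, a call lost in 6 of 9 alternatives). Tbx4, a T-box gene of the allantois and hindlimb field, had 0.839 and 1.13 FPKM in T_Y88A, against 4.101 FPKM in wild type (log2 difference -1.37 ± 0.28). Tbx3 and Mga stayed level, Tbx3 at 6.28 and 5.22 FPKM in T_Y88A and 5.84 FPKM in wild type.

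Streak and caudal progenitor genes gave 1 increase and no decrease. Of 18 tested, 1 rose, 0 fell and 17 did not pass, and the median was 0.36 in TS12 and -0.16 in TS13. Nkx1-2, a homeobox gene of the progenitors common to spinal cord and paraxial mesoderm, had 91.9 and 58.7 FPKM in T_Y88A and 33.2 FPKM in wild type (log2 difference 1.12 ± 0.23, a call lost in 6 of 9 alternatives). Of the caudal homeobox genes, Cdx2 and Cdx4 lay near wild type: Cdx2 had 101 and 72.3 FPKM in T_Y88A and 73.8 FPKM in wild type, and Cdx4 102 and 79.9 against 83.5 FPKM. Several genes of the list separated the T_Y88A libraries instead. Pou5f1, the pluripotency factor still on in the early caudal epiblast, had 55.7 FPKM in T_Y88A TS12 and 6.07 FPKM in TS13, with wild type between them at 24.3 FPKM. Wnt8a, a streak WNT ligand, had 27.9 FPKM in T_Y88A TS12, 7.84 FPKM in TS13 and 6.91 FPKM in wild type. Cdx1 had 47.9 FPKM in T_Y88A TS12 and 11.4 FPKM in TS13, against 9.97 FPKM in wild type, and Grsf1, an RNA-binding protein gene, 398 and 138 against 201.03 FPKM.

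In the notochord and node list 1 of 10 tested genes fell (10%), 0 rose, and the median was 0.13, made up of 0.19 in TS12 and -0.21 in TS13. Summed over the 19 list genes in the table, the level was 240.1 and 162 FPKM in T_Y88A, against 187 FPKM in wild type, with the epithelial keratins Krt8 and Krt18 as its largest members. Krt8, also made by other epithelia, had 103 and 61.0 FPKM in T_Y88A and 73.5 FPKM in wild type. The markers that define the cell type were low in all libraries. Noto, the homeobox gene of node and notochord, was listed at 0 in both T_Y88A libraries and had 2.97 FPKM in wild type. Shh, the signal made by notochord, had 0.0478 and 0.390 FPKM in T_Y88A and 4.06 FPKM in wild type and was called lower (adjusted p = 0.00543), having reached the level tested only through wild type. Foxa2, a forkhead factor of the same cells, had 0.704 and 0.128 FPKM in T_Y88A and 1.85 FPKM in wild type, under the level tested. These 3 were lower in T_Y88A. Of the 19 list genes in the table, untested ones included, both T_Y88A libraries lay below wild type in 10 and above it in 3. Over all 11145 genes tested these counts were 4235 and 4120. Of the 10 tested list genes 6 had a difference above 0, near the share of all genes (5488 of 11145). Among the 6 was Col2a1, a cartilage and notochord collagen, with 3.26 and 6.96 FPKM in T_Y88A and 1.91 FPKM in wild type (adjusted p = 0.151). Of 13 Hedgehog pathway genes 0 were called. Ptch1, the Shh receptor and target, had 17.3 and 16.99 FPKM in T_Y88A and 19.5 FPKM in wild type, and Smo, its signalling partner, 51.6 and 51.1 against 47.2 FPKM.

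Blood genes fell most broadly. Of 11 erythroid regulators tested 8 fell (72.7%), of 22 globin and haem synthesis genes 14 (63.6%), and of 14 red cell membrane genes 11 (78.6%). Of all genes 1.63% fell, and 0 rose in the 3 lists. List medians were -1.48, -1.40 and -1.78. In all 3 lists the TS12 library lay lower than TS13: medians in TS12 and TS13 were -1.57 and -1.34 for the regulators, -1.65 and -1.16 for globins and haem, and -2.06 and -1.38 for the membrane genes. These lists mark a cell type that a sort for T does not aim at. The number of blood cells in each library is not known, and its part in the other results was not tested.

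Among the regulators, Klf1, the zinc finger activator of globin genes (chromosome 8, 84901982 to 84905291), had 0.686 and 1.63 FPKM in T_Y88A TS12 and TS13, against 14.1 FPKM in wild type. Its log2 difference of -2.85 ± 0.30 was the strongest of the list (limma, adjusted p = 0.000456). Nfe2, a leucine zipper partner in globin activation, had 2.45 and 2.63 FPKM in T_Y88A and 9.85 FPKM in wild type. Tal1 and Lmo2, which sit in one complex and are needed for all blood, had 4.25 and 5.46 FPKM against 15.3, and 16.1 and 10.8 against 38.7 FPKM. Gata1, the master erythroid GATA factor, had 1.32 and 1.99 FPKM in T_Y88A, against 5.84 FPKM in wild type (log2 difference -1.38, adjusted p = 0.021). Gfi1b, an erythroid and platelet repressor, had 0.222 and 0.503 against 3.04 FPKM. The 3 regulators that did not pass include Kit, the stem cell factor receptor shared with germ cells and neural crest, at 12.01 and 13.1 FPKM in T_Y88A and 11.4 FPKM in wild type. Gata2, at 1.01 and 0.992 against 1.73 FPKM, and Epor, the erythropoietin receptor, at 0.592 and 1.22 against 2.89 FPKM, were low in all libraries.

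Globin transcripts were among the most abundant RNAs to differ. Embryonic Hbb-bh1 had 716 and 1372 FPKM in T_Y88A TS12 and TS13, against 3412 FPKM in wild type (log2 difference -1.78, a call lost in 5 of 9 alternatives). Embryonic Hbb-y had 209 and 408 FPKM in T_Y88A and 1190 FPKM in wild type, and Hba-a2 279 and 612 against 1880 FPKM, each call being lost in 4 of 9 alternatives. For each of these genes, the T_Y88A libraries differed from each other by less than either differed from wild type. Hba-a1 was near 0 in T_Y88A (0.0115 and 0.0232 FPKM) and had 184 FPKM in wild type; it is a near-identical copy of Hba-a2, so how reads were split between the copies is uncertain. Of the haem pathway, the erythroid enzyme Alas2, which makes the first precursor in red cells, had 4.66 and 8.76 FPKM in T_Y88A, against 29.3 FPKM in wild type (log2 difference -2.03 ± 0.28). Its relative Alas1, which serves all other cells, had 7.84 and 7.86 FPKM in T_Y88A and 6.54 FPKM in wild type and was not called. Enzymes of later steps fell as well: Cpox had 24.0 and 33.5 against 90.2 FPKM, and Fech, which inserts iron, 5.83 and 8.71 against 20.4 FPKM. Slc25a37, the mitochondrial iron importer, had 6.82 and 9.43 FPKM in T_Y88A and 31.7 FPKM in wild type, whereas the general iron receptor Tfrc had 61.9 and 61.9 against 69.7 FPKM.

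Red cell membrane genes followed. Slc4a1, the band 3 anion exchanger, had 3.69 and 7.77 FPKM in T_Y88A, against 37.0 FPKM in wild type (log2 difference -2.57 ± 0.30, adjusted p = 0.00117). The members not called are broadly used: Cd24a, a surface protein of many embryonic cells, had 357 and 398 FPKM in T_Y88A and 321 FPKM in wild type, and Epb4.1, a general cytoskeletal linker, 35.7 and 47.0 against 61.7 FPKM. Calls in these lists depended on the settings. Under quantile normalization 1 regulator, 3 globin and haem genes and 0 membrane genes remained called lower. With robust variance estimates 7 regulators, 9 globin and haem genes and 8 membrane genes did.

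**Figure D3:**
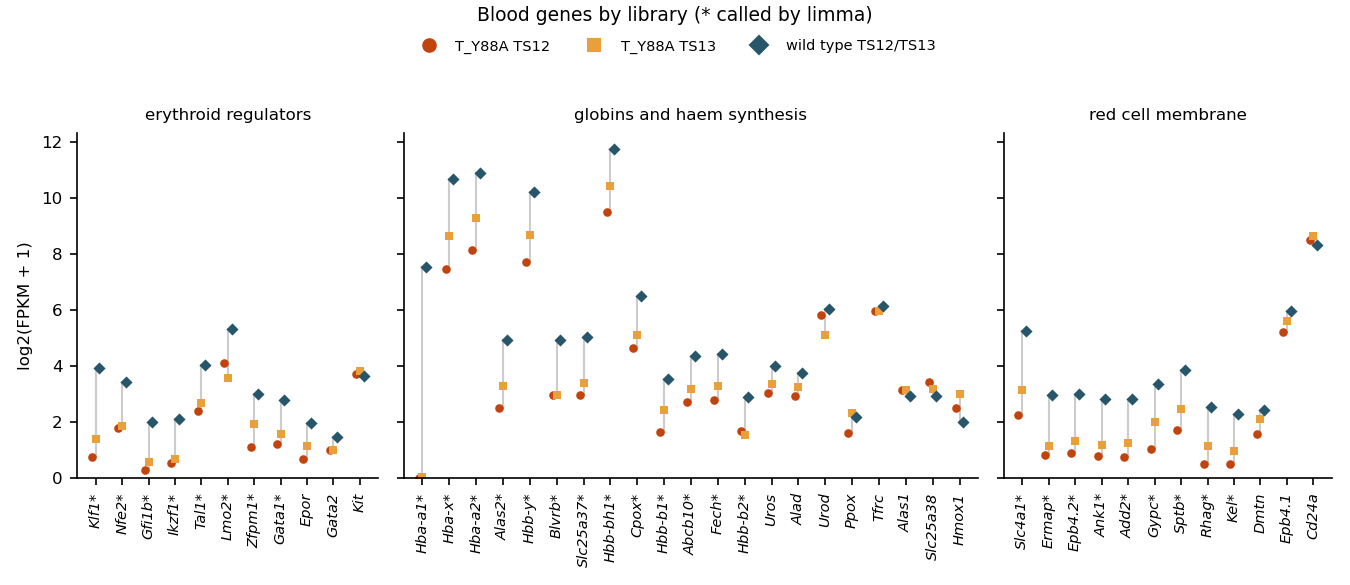
Points give log2(FPKM + 1) of erythroid regulators, globin and haem synthesis genes and red cell membrane genes in T_Y88A TS12, T_Y88A TS13 and wild type, with asterisks for genes called by limma. Erythroid-specific genes sit below wild type in both T_Y88A libraries, while widely used genes such as Kit, Tfrc, Alas1 and Cd24a lie close together.

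Several of the strongest decreases outside all lists belong to genes known from red cells. Trim10, which is needed for terminal erythroid differentiation, had 2.24 and 3.21 FPKM in T_Y88A and 17.3 FPKM in wild type (log2 difference -2.31 ± 0.24, adjusted p = 0.000478). Hemgn, a nuclear protein of blood progenitors, had 2.61 and 3.81 FPKM in T_Y88A, against 14.8 FPKM in wild type. Csf2rb, a cytokine receptor chain, had 0.361 and 0.779 against 6.83 FPKM, and Hebp1, a haem-binding protein, 4.87 and 8.003 against 26.6 FPKM. Others have no such restriction: Slc39a8, a zinc and manganese importer, had 8.48 and 11.8 FPKM in T_Y88A and 42.9 FPKM in wild type, Cited4, a transcriptional coregulator, 1.90 and 2.66 against 13.4 FPKM, and Ell2, an elongation factor, 5.43 and 7.43 against 26.1 FPKM. Spns2, a transporter that exports sphingosine phosphate, had 0.998 and 1.92 FPKM in T_Y88A and 7.74 FPKM in wild type. Eogt, a glycosyltransferase, had 4.17 and 2.49 against 14.2 FPKM, and Tmem56 0.594 and 1.35 against 5.78 FPKM. Chosen after values were seen, Car2, the abundant red cell carbonic anhydrase, had 22.1 and 28.9 FPKM in T_Y88A and 75.1 FPKM in wild type, and S1pr1, a sphingosine phosphate receptor of vessels, 1.05 and 1.02 against 4.33 FPKM.

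Endothelial genes fell too, by less. Of 24 tested, 11 fell (45.8%, against 1.63% of all genes) and 0 rose. The list median was -1.02, made up of -1.21 in TS12 and -0.79 in TS13. In 25 of the 28 list genes in the table both T_Y88A libraries lay below wild type, against 4235 of the 11145 genes tested. Plvap, a component of endothelial diaphragms, had 1.96 and 4.49 FPKM in T_Y88A and 13.6 FPKM in wild type (log2 difference -1.86 ± 0.32). Cdh5, the cadherin of endothelial junctions, had 1.64 and 3.14 FPKM in T_Y88A, against 10.6 FPKM in wild type (adjusted p = 0.00711). Pecam1, an adhesion molecule of the same junctions, had 1.69 and 2.47 against 7.23 FPKM, and Tie1, an endothelial receptor kinase, 0.969 and 1.19 against 4.94 FPKM. Kdr, the VEGF receptor that also marks early lateral mesoderm, had 12.9 and 16.8 FPKM in T_Y88A and 29.3 FPKM in wild type (log2 difference -0.95, a call lost in 5 of 9 alternatives). Erg, an ETS factor of endothelium with 1 of its promoters printed above, had 1.54 and 1.59 FPKM in T_Y88A, against 4.63 FPKM in wild type (adjusted p = 0.0416, a call lost in 5 of 8 alternatives). Etv2, the ETS factor that starts the blood and endothelial programme, had 5.56 and 7.72 FPKM in T_Y88A and 9.90 FPKM in wild type and did not pass, nor did Fli1, at 5.12 and 8.24 against 10.6 FPKM. Under quantile normalization 0 of the list were called. Macrophage and platelet markers were almost absent: Ptprc, Csf1r and Pf4 stayed under 0.1 FPKM in all 3 libraries, and the 15 list genes summed to 3.96 and 2.90 FPKM in T_Y88A and 5.99 FPKM in wild type.

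Neural progenitor genes lay on the other side by their median. Of 17 tested, 1 rose and 0 fell, and the median was 0.21 in TS12 and 0.63 in TS13. The list was divided: 10 of the 17 had a difference above 0 and 7 below, against 5488 and 5657 of all 11145 genes. Of the 31 list genes in the table, both T_Y88A libraries lay above wild type in 12 and below it in 9. Over all genes tested these counts were 4120 and 4235. Sox2, the transcription factor of neural progenitors, had 30.7 and 41.4 FPKM in T_Y88A and 17.9 FPKM in wild type (log2 difference 0.95 ± 0.20, adjusted p = 0.0315, a call lost in 5 of 9 alternatives). Sox1, a stricter neural marker, had 1.47 and 5.37 FPKM in T_Y88A and 0.232 FPKM in wild type (adjusted p = 0.0701). Zic2, a zinc finger gene of the neural plate, had 10.2 and 17.7 against 7.97 FPKM. Others on the list were level or mixed: Cdh2, the neural and mesodermal cadherin, had 32.7 and 45.6 FPKM in T_Y88A and 46.0 FPKM in wild type, and Gbx2 17.1 and 15.8 against 18.9 FPKM. Olig2, of ventral spinal cord, was near 0 in all 3 libraries. Of 7 neural crest and 13 surface ectoderm genes 0 were called; Sox10 and Foxd3, the defining crest genes, stayed under 0.2 FPKM. Epcam, an epithelial adhesion molecule, had 13.4 and 7.42 FPKM in T_Y88A and 20.3 FPKM in wild type (adjusted p = 0.1).

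In the visceral endoderm and yolk sac list 3 of 7 tested genes fell (42.9%, against 1.63% of all genes) and 0 rose, with a median of -0.07. Rhox5, a homeobox gene of extraembryonic lineages, had 0.239 and 0.371 FPKM in T_Y88A and 4.96 FPKM in wild type (log2 difference -2.19 ± 0.29, adjusted p = 0.00223). Apoe, a lipoprotein gene, had 31.8 and 26.9 FPKM in T_Y88A, against 50.6 FPKM in wild type (a call lost in 6 of 9 alternatives). Cited1, a coregulator also listed with presomitic genes, had 42.8 and 30.9 against 88.4 FPKM. The visceral endoderm markers Afp and Apoa1 stayed under 0.6 FPKM in all libraries, and Ttr had 1.36 and 0.426 FPKM in T_Y88A and was listed at 0 in wild type. Of 9 gut endoderm genes 1 fell, Nepn, at 2.29 and 1.09 FPKM in T_Y88A and 5.67 FPKM in wild type (a call lost in 6 of 8 alternatives). Osr1, a zinc finger gene of intermediate and lateral mesoderm, was the 1 of 13 lateral plate and cardiac genes to fall, with 5.17 and 4.00 FPKM in T_Y88A and 13.6 FPKM in wild type (log2 difference -1.39 ± 0.23). Hand2, of lateral mesoderm, had 11.7 and 16.7 against 16.0 FPKM, and Hand1, of extraembryonic mesoderm, 16.1 and 13.02 against 12.2 FPKM. Cardiac Nkx2-5 was listed at 0 throughout. Of 13 pluripotency and germ cell genes 2 fell: Dppa3, a germ cell and early embryo gene, at 4.01 and 2.30 FPKM in T_Y88A and 9.84 FPKM in wild type, and Ifitm1 at 64.1 and 74.7 against 117 FPKM.

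Each signalling list held between 0 and 3 called genes in a direction. Of 21 WNT ligand and receptor genes 1 fell and 1 rose, and both encode R-spondins, secreted amplifiers of WNT. Rspo3 (chromosome 10, 29453106 to 29535867) had 13.5 and 8.11 FPKM in T_Y88A and 56.2 FPKM in wild type (log2 difference -2.31 ± 0.25). Rspo1 had 2.36 and 2.71 FPKM in T_Y88A, against 0.328 FPKM in wild type (log2 difference 1.41 ± 0.28, adjusted p = 0.021). Of 17 WNT antagonists and targets 2 fell, and 14 had a difference below 0, against 5657 of all 11145 genes. Their median was -0.23, made up of -0.03 in TS12 and -0.53 in TS13. The 2 that fell are secreted antagonists: Dkk1 had 1.87 and 1.096 FPKM in T_Y88A and 7.404 FPKM in wild type, and Frzb 8.13 and 5.52 against 22.01 FPKM. The widely used target Axin2 had 41.4 and 21.0 FPKM in T_Y88A and 31.4 FPKM in wild type, and Lef1 31.8 and 30.9 against 43.7 FPKM; neither passed. Wls, which carries WNT proteins to the cell surface, lay outside the lists and was picked after its values were seen; it rose to 122 and 110 FPKM in T_Y88A, against 67.5 FPKM in wild type.

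In the FGF list 1 of 24 fell, Fgf18, a ligand of somites and limb, with 1.45 and 1.61 FPKM in T_Y88A and 8.22 FPKM in wild type (log2 difference -1.87 ± 0.25, adjusted p = 0.00241). Feedback genes that report FGF signalling did not pass: Dusp6 had 32.3 and 34.6 FPKM in T_Y88A and 44.0 FPKM in wild type, and Spred1 37.8 and 40.0 against 37.1 FPKM. Fgf8, the streak ligand, had 9.99 and 3.78 against 13.1 FPKM. In the BMP and TGF-beta list 1 of 20 rose, Id2, an inhibitor of helix-loop-helix factors induced by BMP, with 89.3 and 110 FPKM in T_Y88A and 51.8 FPKM in wild type. Its relatives lay on the same side without passing: Id1 had 32.8 and 26.5 FPKM in T_Y88A and 17.5 FPKM in wild type, and Id3 73.3 and 49.8 against 36.7 FPKM. Bmp4, a ligand of the posterior streak, was level at 18.0 and 18.6 FPKM in T_Y88A and 21.2 FPKM in wild type. In the retinoic acid list 1 of 14 fell, Cyp26a1, the enzyme that clears retinoic acid from the tail bud, with 4.08 and 4.38 FPKM in T_Y88A and 28.8 FPKM in wild type (log2 difference -2.51 ± 0.21, adjusted p = 5.96e-05). Crabp2, which shuttles retinoic acid to its receptors, had 408 and 482 FPKM in T_Y88A and 285 FPKM in wild type (adjusted p = 0.0627). Of 20 NOTCH pathway genes 3 fell, Dll1, Nrarp and Lfng, all presomitic. The list median was -0.39. In 17 of its 24 genes in the table both T_Y88A libraries lay below wild type, against 4235 of the 11145 genes tested. Hes1 had 27.8 and 33.4 FPKM in T_Y88A and 30.0 FPKM in wild type.

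Adhesion and matrix lists held few calls. Fn1, the fibronectin that somites assemble on, had 29.8 and 45.2 FPKM in T_Y88A and 80.9 FPKM in wild type (log2 difference -1.12 ± 0.22, adjusted p = 0.021, a call lost in 5 of 9 alternatives). Itgb8, an integrin chain, had 1.44 and 1.77 FPKM in T_Y88A, against 5.49 FPKM in wild type. These were the 2 of 19 integrin and fibronectin matrix genes that fell, while Itgb1, the shared integrin chain, had 74.4 and 76.3 against 91.5 FPKM. Of 26 collagen and basement membrane genes 2 fell: Nid1, a basement membrane linker, at 2.54 and 4.41 FPKM in T_Y88A and 10.4 FPKM in wild type, and Lama1, a laminin chain, at 2.80 and 3.98 against 8.08 FPKM. The Lama1 call was lost in 6 of 8 alternatives. Of 32 guidance genes 2 fell: Plxnd1, a semaphorin receptor of vessels, at 1.61 and 1.88 FPKM in T_Y88A and 5.42 FPKM in wild type, and Sema6d at 1.34 and 2.08 against 5.03 FPKM. The Sema6d call was lost in 6 of 8 alternatives. Pdgfra, the mesenchymal growth factor receptor, had 23.8 and 33.2 against 33.6 FPKM. Of 17 Eph and ephrin genes 0 were called, and of 14 cadherins Pcdh19 and Cdh5, described above.

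Imprinted genes held some of the deepest decreases in the comparison, at few loci. Of 16 genes known to be expressed from the maternal allele 4 fell, and the 16 had a median of -0.15. H19, a long noncoding RNA (chromosome 7, 142575530 to 142578146), had 16.3 and 14.9 FPKM in T_Y88A and 1154 FPKM in wild type (log2 difference -6.12 ± 0.16, adjusted p = 9.51e-10). Its paternally expressed neighbour Igf2, a growth factor, had 207 and 304 FPKM in T_Y88A and 170 FPKM in wild type (adjusted p = 0.195). Other maternal genes were level, such as Grb10, a growth inhibitor, at 200.9 and 253 FPKM in T_Y88A and 223 FPKM in wild type, and Gnas, at 159 and 170 against 180 FPKM. Of 23 paternally expressed genes 2 fell, Rtl1 and Peg13; Peg13, a noncoding RNA, was near 0 in T_Y88A (0.108 and 0.0419 FPKM) and had 4.30 FPKM in wild type. Mest and Peg3 were level, at 113 and 139 against 132 FPKM and 72.2 and 91.6 against 84.1 FPKM.

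The other imprinted decreases cluster in the Dlk1 to Dio3 region of chromosome 12 (109452485 to 110281097, mm10). Listed there are 75 genes, 66 of them small RNA genes. Of these 75, 7 averaged 1 FPKM or more, and 6 were at least 2-fold lower in FPKM in both T_Y88A libraries. All 6 lay under 1 FPKM in both T_Y88A libraries and reached that average only through wild type, which fixes their direction. Among them is the small nucleolar RNA AF357355, left out of the tests, listed at 0 in T_Y88A embryos and at 8.12 FPKM in wild type. On the log2(FPKM + 1) scale, 1.43% of all tested genes were at least 2-fold lower in both. Rian, a maternal noncoding RNA that hosts small nucleolar RNAs, had 0.953 and 0.602 FPKM in T_Y88A embryos and 55.0 FPKM in wild type, and at Day 4 0.968 FPKM in T_Y88A and 74.0 FPKM in wild type. Meg3, the maternal noncoding RNA next to Dlk1, was near 0 in T_Y88A embryos (0.0642 and 0.0503 FPKM), against 7.58 FPKM in wild type; its Day 4 values were 0.257 FPKM in T_Y88A and 11.6 FPKM in wild type. Mirg, the microRNA host, had 0.245 and 0.781 FPKM in T_Y88A and 9.75 FPKM in wild type. Rtl1, which is paternal and overlaps a maternal antisense RNA, had 0.377 and 0.478 FPKM in T_Y88A and 3.97 FPKM in wild type; since strand-aware counting is not stated, its reads cannot be told apart from the antisense ones. The exception was Dlk1, the paternal gene at the start of the region, at 8.62 and 7.20 FPKM in T_Y88A and 4.196 FPKM in wild type. In culture, which has its own control library, Mirg was listed at 0 in T_Y88A and had 6.91 FPKM in wild type, and Rtl1 had 0.0280 against 2.73 FPKM.

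Hox and chromatin genes gave almost no calls. Of 30 Hox genes 1 rose, Hoxb9, of the trunk, with 102 and 125 FPKM in T_Y88A and 64.3 FPKM in wild type (log2 difference 0.80 ± 0.17, a call lost in 5 of 9 alternatives). More abundant neighbours in other clusters were level, such as Hoxc8 at 65.4 and 91.8 FPKM in T_Y88A and 83.5 FPKM in wild type. Of 30 histone acetylation and Polycomb genes 0 were called, with a median of 0.03. Hdac2, a histone deacetylase, had 175 and 186 against 169 FPKM.

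Stress and metabolic lists held few calls, with some single changes, and some lists leaned to one side as a whole. Arg1, the arginase that breaks arginine into urea and ornithine (chromosome 10, 24915207 to 24927470), had 2.03 and 1.36 FPKM in T_Y88A and 29.7 FPKM in wild type (log2 difference -3.52 ± 0.24, adjusted p = 1.14e-05). Atf4, the transcription factor of amino acid stress, had 98.1 and 93.2 FPKM in T_Y88A and 156 FPKM in wild type, and its target Asns, asparagine synthetase, 29.2 and 30.4 against 51.9 FPKM; both fell, each call being lost in 5 of 9 alternatives. Of 25 genes of that list 3 fell and 1 was called higher. Among 19 endoplasmic reticulum chaperones 17 lay below wild type in both T_Y88A libraries and 0 above, against 4235 and 4120 of all 11145 genes. Only 1 passed: Hsp90b1, with 486 and 515 FPKM in T_Y88A and 788 FPKM in wild type, a call lost in 5 of 9 alternatives. Hspa5, the most abundant chaperone of the compartment, had 700 and 603 against 765 FPKM. In 20 transfer RNA synthetases 15 lay below wild type in both libraries and 1 above, with 0 called. The list medians were -0.36 and -0.20.

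Of 23 cholesterol synthesis genes 12 lay above wild type in both T_Y88A libraries and 2 below, against 4120 and 4235 of all 11145 genes. The 1 that rose was Tm7sf2, a sterol reductase, with 4.59 and 3.43 FPKM in T_Y88A and 1.01 FPKM in wild type. Idi1, an isoprenoid enzyme, had 80.3 and 105 against 54.1 FPKM (adjusted p = 0.0583). Of 26 p53 target and apoptosis genes 1 rose and 1 fell. Pmaip1, a pro-death BH3 protein, had 18.0 and 17.5 FPKM in T_Y88A and 9.48 FPKM in wild type, and Plk2, a kinase, 10.05 and 9.80 against 20.3 FPKM. Ccng1, a classic p53 target, had 46.2 and 48.5 against 30.9 FPKM without passing (adjusted p = 0.094). Of 34 replication and cell cycle genes, 28 glycolysis and hypoxia genes, 44 oxidative phosphorylation genes, 29 proteasome genes, 16 heat shock genes and 11 immediate early genes 0 were called. Pcna, the replication clamp, had 583 and 506 FPKM in T_Y88A and 493 FPKM in wild type. Of 17 actin and contractile genes 1 fell, Tpm1, a tropomyosin, at 189 and 156 against 290 FPKM. Uty, on the Y chromosome, rose to 12.2 and 13.04 FPKM in T_Y88A, against 5.61 FPKM in wild type; its neighbour Eif2s3y had 31.0 and 25.6 against 31.1 FPKM, and Xist stayed under 0.2 FPKM in all 3 libraries.

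**Figure D4:**
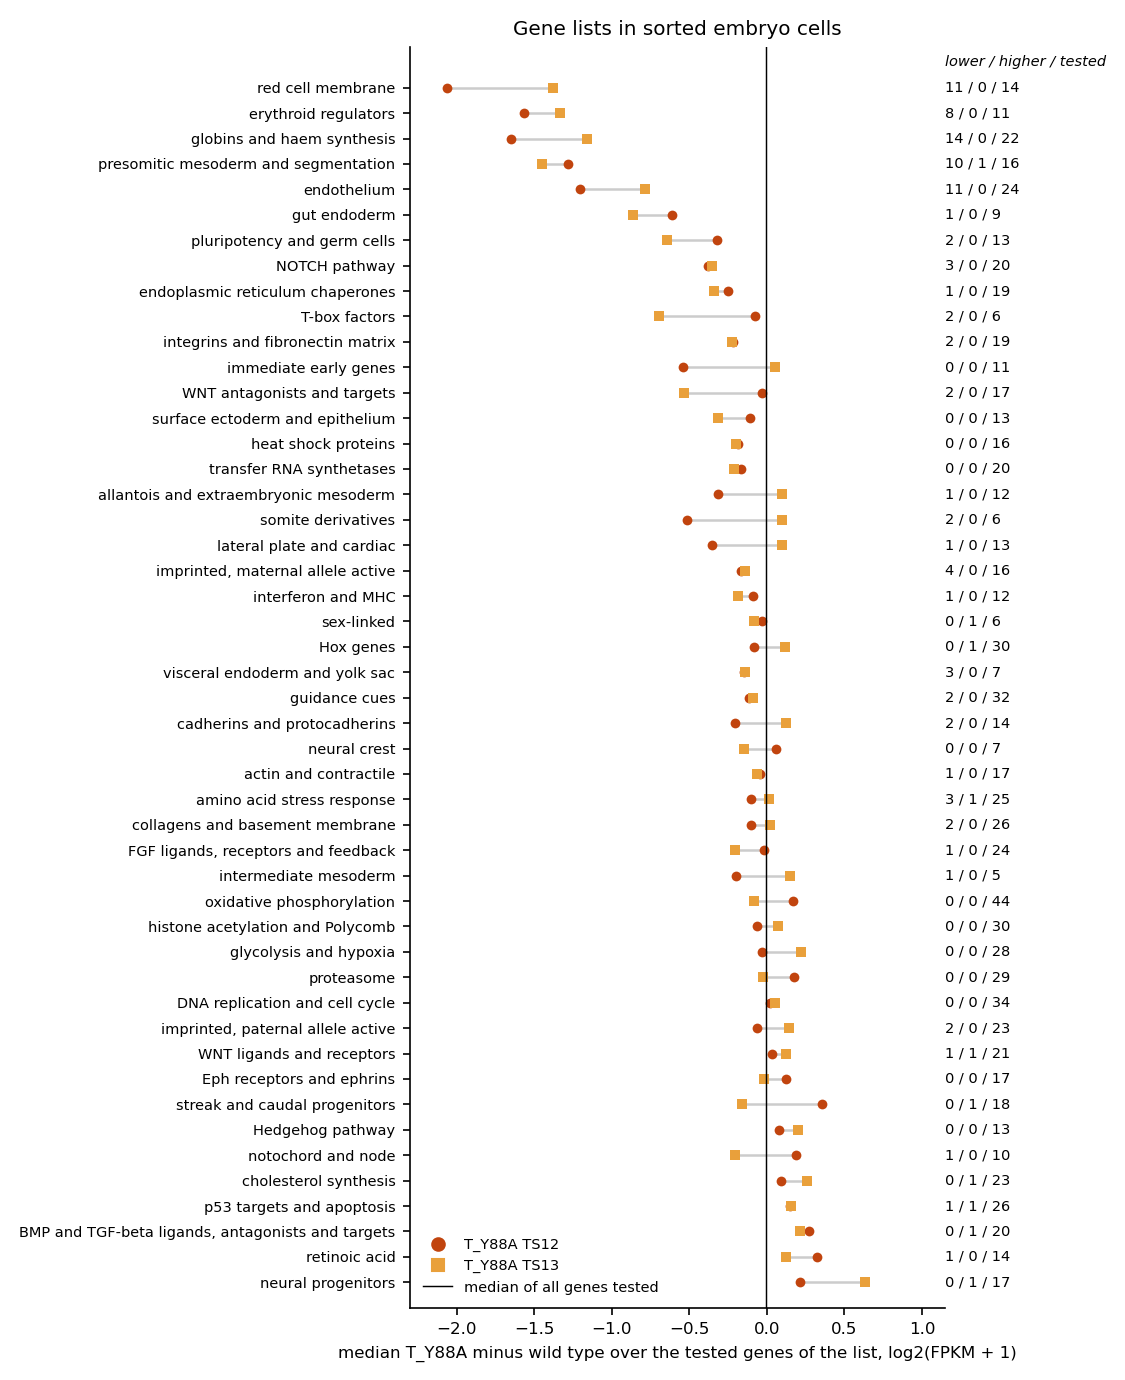
For each gene list, points give the median difference from wild type (log2(FPKM + 1)) over its tested genes in T_Y88A TS12 and T_Y88A TS13, the vertical line marks the median of all genes, and the numbers give genes called lower, called higher and tested. Red cell, presomitic and endothelial lists stand at the lower end in both libraries, while most other lists lie within 0.5 of the line.

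Increases were fewer and smaller. Outside the lists the largest was Rps27, a ribosomal protein, with 170 and 343 FPKM in T_Y88A and 10.9 FPKM in wild type (log2 difference 4.35 ± 0.30); ribosomal protein genes have many processed copies, so its reads may be split. Rmnd1, a mitochondrial translation gene, had 9.70 and 7.15 FPKM in T_Y88A and was near 0 in wild type, as was Amd1, of polyamine synthesis, at 8.39 and 43.7 FPKM in T_Y88A and 0.0110 FPKM in wild type. Such values next to 0 can be failed estimates, and no fold is given for them. Gm20594, an abundant predicted gene, had 1184 and 923 FPKM in T_Y88A and 396 FPKM in wild type. Nup62cl had 11.8 and 6.61 FPKM in T_Y88A, against 2.13 FPKM in wild type, and Tlcd2 5.70 and 7.43 against 1.60 FPKM. Acyp1, an acylphosphatase, had 20.4 and 11.9 FPKM in T_Y88A and 6.19 FPKM in wild type. The other 6 of the 12 largest, Zfp273, A930024E05Rik, Rabl5, Gm3258, Ubl7 and Ppap2a, reached at most 9.84 FPKM in any embryo library.

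Histone genes were frequent among the increases. Of 66 tested genes with histone names 18 rose and 0 fell, against 0.763% and 1.63% of all genes. Of the 18, 16 lie in the cluster on chromosome 13, where 52 were tested. Under quantile normalization the 3 genes called higher were Rps27, Rmnd1 and Gm20594, so none of the histone increases stayed called. Hist1h4m, an H4 gene, had 1047 and 866 FPKM in T_Y88A and 556 FPKM in wild type, and Hist1h1a, a linker histone gene, 1632 and 1517 against 990 FPKM. Both examples were chosen after values were seen, and the copies are so alike that their reads can be shared. Chromosome 13 as a whole had 20 genes called higher and 9 lower of 455 (6.37%), the highest share of any autosome; chromosome 12 was next, with 3 higher and 11 lower of 400 (3.5%). Chromosome 17, which carries T, had 0 higher and 8 lower of 561 (1.43% lower), near the 1.63% of all genes called lower.

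The Day 4 libraries show which embryo differences recur in cultured T-positive cells. With 1 library of each genotype at Day 4, differences there have no replicate check. Among all genes tested in embryos, 58 (0.52%) stood at least 2-fold higher and 91 (0.817%) at least 2-fold lower in T_Y88A at Day 4. Of the 182 genes called lower in embryos, 9 stood at least 2-fold lower at Day 4 (4.95%) and 3 at least 2-fold higher, with a median of 0.00. The 9 were Rian, Meg3, Mirg, Rtl1, 6430411K18Rik, Rspo3, Shh, Dppa3 and Limch1, of which 5 lie in the chromosome 12 cluster. Rspo3 had 1.45 FPKM in Day 4 T_Y88A and 6.94 FPKM in Day 4 wild type, and Dppa3 5.19 against 18.8 FPKM. Some embryo differences fell on genes that were low in culture: Msgn1 was listed at 0 in Day 4 T_Y88A and had 0.409 FPKM in Day 4 wild type, and Klf1 had 0.191 and 0.121 FPKM. Of the 85 genes called higher in embryos 5 stood at least 2-fold lower at Day 4 (5.88%) and 2 at least 2-fold higher (2.35%).

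A test of the difference between the embryo and Day 4 effects called 17 of 11602 genes (0.147%). All spread in that fit comes from the 1 pair of T_Y88A embryo libraries (1 residual degree of freedom), and the wild-type and Day 4 libraries are assumed to vary like them. H19 had 16.3 and 14.9 FPKM in T_Y88A embryos and 1154 FPKM in wild-type embryos, but 234 FPKM in T_Y88A and 346 FPKM in wild type at Day 4 (difference of log2 differences -5.56, adjusted p = 0.00113). Cyp26a1 fell in embryos and had 20.3 FPKM in T_Y88A and 16.5 FPKM in wild type at Day 4 (-2.80, adjusted p = 0.0409). Blvrb, a biliverdin reductase of red cells, had 6.71 and 6.87 FPKM in T_Y88A embryos and 29.7 FPKM in wild type, and at Day 4 25.4 FPKM in T_Y88A and 17.3 FPKM in wild type (-2.51, adjusted p = 0.0497). Lars2, annotated as a mitochondrial leucine transfer RNA synthetase, had 325 and 277 FPKM in T_Y88A embryos and 1135 FPKM in wild type, and at Day 4 4686 FPKM in T_Y88A and 644 FPKM in wild type (-4.78, adjusted p = 0.00224). Nog, a BMP antagonist of notochord and neural tissue, ran the other way, at 3.70 and 3.19 FPKM in T_Y88A embryos and 1.71 FPKM in wild type, and at Day 4 0.431 FPKM in T_Y88A and 12.1 FPKM in wild type (3.91, adjusted p = 0.0247).

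**Figure D5:**
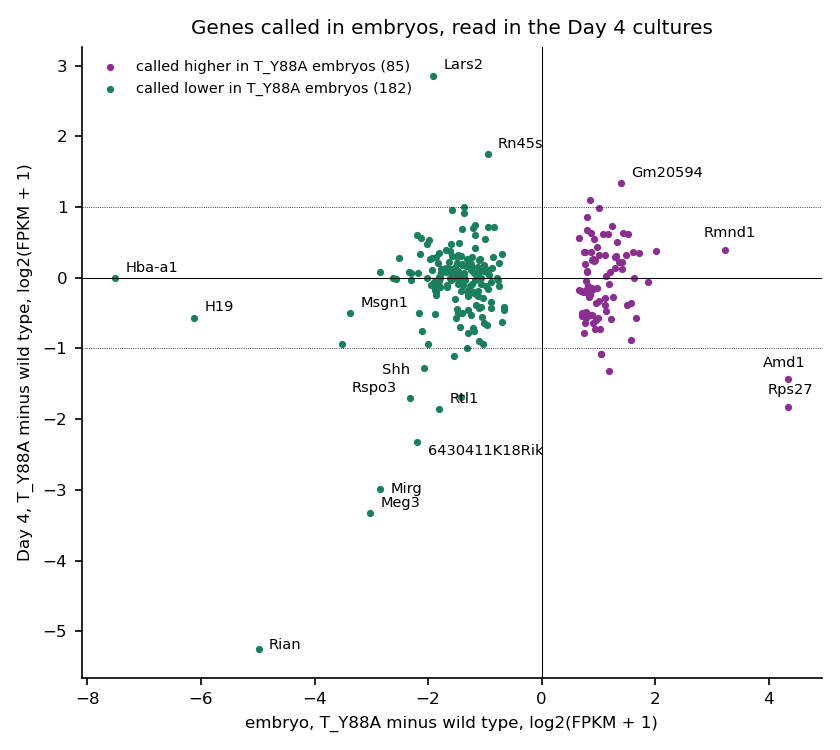
Each point is a gene called in embryos (85 higher, 182 lower); the x axis gives the embryo difference and the y axis the Day 4 difference, T_Y88A minus wild type as log2(FPKM + 1), with dotted lines at 2-fold. Genes of the chromosome 12 imprinted cluster (Rian, Meg3, Mirg, 6430411K18Rik) are low on both axes, Lars2 and Rn45s are low in embryos and high at Day 4, and most points lie between the dotted lines.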

How the data were processed

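RNA from T-positive sorted cells was made into libraries with a low-input ScriptSeq kit, per the labels' protocols. The authors deposited 1 table of FPKM for 5 libraries and 23421 symbols. The submitters' processing notes name bedtools 2.23.0, TopHat2 2.0.8, Cufflinks 2.1.1 and mm10; their roles, and whether counting used strand, are not given in the sources used here. All 5 columns were matched by label, and 0 were unused; the chromatin samples were not analysed here. FPKM hold no read totals, so absolute depth is unknown and no counting interval can be given.

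The analysis took log2(FPKM + 1) of every gene averaging 1 FPKM or more in the 3 embryo libraries, without small RNA genes (77 above that limit). limma 3.58.1 (R 4.3.3, variance trend) fitted genotype to the 3 libraries, treating the single wild-type library as varying like the T_Y88A ones; residual degrees of freedom were 1 and prior degrees of freedom 11. P-values are two-sided, Benjamini-Hochberg adjusted over all genes, and called under 0.05 where both T_Y88A libraries share a direction. A second limma fit over 5 libraries tested the interaction of system and genotype. The fit to the 3 libraries, but not the one over 5, was run on simulated data that gave wild type the spread of the T_Y88A pair. That run cannot check the assumption made for the single wild-type library. Python 3.11.15 and matplotlib 3.10.9 made tables and plots.

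The comparison and the 49 gene lists (1109 distinct genes, 13 of them not in the table) were chosen with earlier results of these data known, so list counts are descriptions. Named genes are T, up to 6 called and 4 abundant uncalled members of a list, defining cell type markers, the 12 largest changes each way outside the lists, and the 8 largest interaction genes. Some list members that the rule would name are not reported here. Other named genes serve as further examples and were picked with their values known. Coordinates and promoters are RefSeq's (GRCm38.p6), counted from 1; 21649 symbols matched directly and 1597 by synonym.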

Additional observations from a re-analysis of the deposited data

Results flagged for a closer look

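For each of the following 17 genes limma's interaction test over all 5 libraries called the T_Y88A minus wild type difference unequal between embryos and Day 4 (adjusted p under 0.05). Every combination of genotype and system other than T_Y88A embryos is a single library, so the spread comes from the 1 pair of T_Y88A embryo libraries, with 1 residual degree of freedom, and how far Day 4 libraries vary was not measured. Values are the embryo difference minus the Day 4 difference on the log2(FPKM + 1) scale, and Day 4 rests on 1 library of each genotype.

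Below 0 stood genes relatively lower in T_Y88A embryos: H19 (-5.56), Lars2 (-4.78), Cyp26a1 (-2.80), Rn45s (-2.70), Blvrb (-2.51) and BC002163 (-2.27). Rn45s, the ribosomal RNA precursor, had 1308 and 1316 FPKM in T_Y88A embryos and 2537 FPKM in wild-type embryos, and at Day 4 6061 FPKM in T_Y88A and 1801 FPKM in wild type. BC002163 had 25.3 and 26.1 FPKM in T_Y88A embryos and 67.5 FPKM in wild type, and at Day 4 76.8 and 40.3 FPKM.

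Above 0 stood Hist1h2ab (2.29), Rps21 (2.32), Akr1b3 (3.23), Gm7334 (3.86), Nog (3.91) and Rps27 (6.17). Akr1b3, an aldose reductase, had 101 and 97.1 FPKM in T_Y88A embryos and 83.0 FPKM in wild type, and at Day 4 3.65 FPKM in T_Y88A and 35.8 FPKM in wild type. Rps21 had 1985 and 1999 FPKM in T_Y88A embryos and 1457 FPKM in wild type, and at Day 4 295 FPKM in T_Y88A and 1082 FPKM in wild type.

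The remaining genes rest on a value at or near 0 in a library of one system, so their size has no meaning as a fold. Nolc1 (-5.91) and Cnot1 (-5.09) were listed at 0 in Day 4 wild type, with 47.9 and 34.5 FPKM in Day 4 T_Y88A. Amd2 (-5.004) had 0.00899 FPKM in Day 4 wild type and 41.3 FPKM in Day 4 T_Y88A. Eif3j1 (4.56) had 0.00487 FPKM in Day 4 T_Y88A and 34.8 FPKM in Day 4 wild type. Hba-a1 (-7.51) was near 0 in every library but embryo wild type. Gm7334 had 0.0294 FPKM in Day 4 T_Y88A.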

How the results depend on the processing

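Counts of called genes, 85 higher and 182 lower as reported, were 0 and 0 with no filter on low values, 3 and 31 after quantile normalization, and 1 and 5 when all 5 libraries were fitted with the system as a covariate. Every gene called in the last 2 alternatives was among those reported. Decreases numbered 111 at a mean of at least 5 FPKM; increases numbered 40 without the variance trend and 50 where small RNA genes were kept. The size counts, 39 higher and 159 lower, were 151 and 255 at a pseudocount of 0.1, 4 and 38 at a pseudocount of 5, and 12 and 62 at a mean of at least 5 FPKM. Leaving out 1 T_Y88A library gave 117 to 130 higher and 240 to 262 lower, by construction more, since 1 library then decides; no test was made with 1 library a group. The 17 genes that differed between embryo and Day 4 became 42 at a mean of at least 5 FPKM, 10 after quantile normalization and 7 without the variance trend. Lars2 turned to 0.13 with the system as a covariate, where Day 4 enters with the opposite direction. For single genes, 656 values kept direction and side of the threshold under an alternative, 403 lost the call and 1 gained it; of the list counts, 191 stayed within 1.5 times and 169 did not. Why calls were lost was not tested. No paired analysis was possible because the labels give no replicate numbers shared between genotypes. With unknown depth, values under about 1 FPKM carry an error that cannot be stated.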
